A study of Mus musculus with 12 samples.

Results

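STAT transcription factors and the SOCS proteins that restrain them were followed at the mRNA level through 9 genes in mouse CD4+ T cells. The transcription factor genes were Stat3, Stat4, Stat5a, Stat5b and Stat6, and the feedback inhibitor genes were Socs1, Socs2, Socs3 and Cish. They were picked by name as members of these families, with earlier results of these data known, and make up 9 of the 17523 genes in the expression table. All 9 were found in the table by their Entrez identifiers, and all 9 passed the filter on low counts.

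The study asked whether CD4+ T cells that made GM-CSF at some time in the past differ from those that did not. Splenic CD4+ T cells were sorted on surface markers that include CD44 into naive cells, which were CD44-, and effector memory cells (TEM), which were CD44hi. Each was split by yellow fluorescent protein (YFP), and total RNA was sequenced from 3 libraries in each of 4 groups: naive YFP-, naive YFP+, TEM YFP- and TEM YFP+. The smallest library had 40974124 reads on genes and the largest 57822269 (median 44929387.5).

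All 4 groups came from unimmunised Gr/fr mice of strain C57BL/6, so every library carries the same alleles. The Gr allele of Csf2, the GM-CSF gene, keeps normal GM-CSF expression and adds iCre and blue fluorescent protein at the endogenous locus. The other allele, Rosa26eYFP, makes YFP after iCre has removed a STOP cassette, and the excision is permanent. YFP+ cells, or the cells they descend from, had therefore expressed Csf2 at some time, and YFP does not report current expression. No group without the transgenes was sequenced, and a gate on CD25 is not stated for this sort. The study's methods give n = 3 mice, and an age of 2 to 3 months for mice whose CD4+ T cells were sorted for culture. The sources used here give neither age nor sex for these libraries themselves. Whether the 4 libraries of a replicate number came from the same mouse is not stated, so the p-values below measure the spread between sorted samples.

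Cytokine receptors on T cells lack kinase activity of their own and signal through bound JAK kinases, which phosphorylate STAT proteins, and these then enter the nucleus and bind DNA. In CD4+ T cells STAT4 acts after IL-12, STAT6 after IL-4, STAT3 after IL-6, IL-21 and IL-23, and STAT5A and STAT5B after IL-2, IL-7 and IL-15. SOCS proteins and CIS, the product of Cish, are induced by STATs and bind receptors or JAKs, which closes a negative feedback loop.

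By RefSeq on GRCm38.p6, 4 of the 9 genes lie on chromosome 11. Stat5b (Entrez 20851, chr11:100780731-100859004, minus strand) and Stat5a (Entrez 20850, chr11:100859351-100885169, plus strand) face away from each other, with 346 bases between the spans. Stat3 (Entrez 20848, chr11:100886806-100939594, minus strand) ends 1636 bases from the end of Stat5a, and in GENCODE M21 those genes share 72 bases on opposite strands. Socs3 (Entrez 12702, chr11:117966079-117970336, minus strand) lies farther along the chromosome. Stat6 (Entrez 20852, chr10:127642955-127660987, plus strand) and Socs2 (Entrez 216233, chr10:95383903-95417321, minus strand) are on chromosome 10. Stat4 (Entrez 20849, chr1:51987106-52107189, plus strand), Cish (Entrez 12700, chr9:107296659-107302784, plus strand) and Socs1 (Entrez 12703, chr16:10783808-10785536, minus strand) lie alone on theirs. Stat5a and Stat5b code for closely similar proteins, Stat6 overlaps Nab2 and Stat4 overlaps the pseudogene Gm3940, each on the other strand, so how reads in shared stretches were assigned could move these counts. In GENCODE M21 Gm28177 also overlaps Stat4 on the same strand, and Gm17040 and Gm17041 overlap Cish on the other strand. None of these is in the expression table. The strand setting and the gene annotation used for counting are not given in the sources used here.

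STAT proteins bind as dimers to palindromes in DNA, and SOCS genes are known STAT targets. RefSeq promoter windows of 300 bases were available for 8 of the 9 genes, and Socs2 had none. Each window runs from 250 bases before to 50 after a start of its own, which for some genes, Stat5b and Socs3 among them, lies inside the gene span given above. The letters TTCNNNGAA, which read the same on both strands, were in the windows of 2 genes, Cish with 2 matches and Socs3 with 1. The longer spacing, with 4 bases between TTC and GAA, was in none of the windows of the 8 genes. Of 32851 windows of that length, 8.3% hold at least 1 TTCNNNGAA, 0.457% hold at least 2, and 6.95% hold the longer spacing. The 30 bases around the matches in Cish (chr9:107296654-107296683, plus strand) and Socs3 (chr11:117969502-117969531, minus strand) follow, from RefSeq on GRCm38.p6, with the matches in capitals. The Cish matches begin 0 and 11 bases after the start on which its window is set, and the Socs3 match begins 154 bases before that of its own window.
Cish: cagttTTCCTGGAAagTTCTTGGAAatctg
Socs3: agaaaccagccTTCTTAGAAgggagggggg
These are matches of letters only, and binding was not measured.

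Stat4, the transcription factor of the IL-12 response, had 6278, 5185 and 5648 normalized counts in the naive YFP- libraries, 6274, 4842 and 5685 in naive YFP+, 9179.7, 9553 and 7434 in TEM YFP- and 11513, 11424 and 10291 in TEM YFP+, each for replicates 1, 2 and 3. A normalized count is the number of reads on the gene divided by the size factor of its library. Every TEM library was above every naive library, and every TEM YFP+ library was above every TEM YFP- library, while the naive groups overlapped. In limma's test Stat4 rose from naive to TEM in YFP- cells (log2 fold change 0.61, SE 0.12, adjusted p 0.00103) and in YFP+ cells (log2 fold change 0.99, SE 0.12, adjusted p 3.08e-05). Between YFP+ and YFP- TEM cells the same test gave log2 fold change 0.35, SE 0.12, adjusted p 0.118, which is above the threshold of 0.05. With the replicate number as a block the adjusted p was 0.0405, and it ran from 0.0302 to 0.441 over 24 alternatives, of which 2 passed. In sorted bulk samples a change in the share of a cell type and a change in RNA per cell cannot be told apart.

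Stat3, which relays IL-6 family cytokines, had 21127, 19725 and 18521 normalized counts in the naive YFP- libraries, 22060.0, 20212 and 18545 in naive YFP+, 17076, 17298 and 15696 in TEM YFP- and 17125, 18460.0 and 16089.7 in TEM YFP+. Stat5b had 20854, 19058 and 18120.0 normalized counts in the naive YFP- libraries, 19659.6, 18159.8 and 17385 in naive YFP+, 16064, 14013 and 13844 in TEM YFP- and 14873, 14115 and 13484 in TEM YFP+. Stat6, the factor of the IL-4 response, had 15712, 12798 and 14241 normalized counts in the naive YFP- libraries, 16326, 12935 and 13780.5 in naive YFP+, 12012, 10851 and 11351 in TEM YFP- and 12631, 11744 and 11886 in TEM YFP+. For all 3 genes every naive library was above every TEM library of the same YFP status, and the YFP+ and YFP- groups overlapped within each cell type.

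In YFP- cells Stat5b fell from naive to TEM (log2 fold change -0.40, SE 0.09, adjusted p 0.0028), as did Stat6 (log2 fold change -0.32, SE 0.10, adjusted p 0.021) and Stat3 (log2 fold change -0.25, SE 0.09, adjusted p 0.0462). Quantile normalization moved the median of all genes from 0.05 to -0.20 in this comparison. Measured from that median, the log2 differences of Stat3, Stat5b and Stat6 were -0.29, -0.45 and -0.37 before and 0.14, -0.02 and 0.02 after, so on that measure Stat3 and Stat6 turned direction and Stat5b came close to 0. As fitted under quantile normalization all 3 stayed negative. In limma's test they were -0.06 for Stat3 (adjusted p 0.585), -0.22 for Stat5b (adjusted p 0.0233) and -0.18 for Stat6 (adjusted p 0.0193). In YFP+ cells Stat5b fell too (log2 fold change -0.38, SE 0.09, adjusted p 0.00539), while Stat6 (log2 fold change -0.24, SE 0.10, adjusted p 0.0789) and Stat3 (log2 fold change -0.23, SE 0.09, adjusted p 0.0648) did not pass. They did with the replicate number as a block (adjusted p 0.00566 for Stat6 and 0.00715 for Stat3), and each passed in 6 of 24 alternatives (ranges 0.00316 to 0.266 and 0.00383 to 0.456). There quantile normalization moved the median from 0.03 to -0.14, and the differences from it were 0.06 for Stat3, -0.12 for Stat5b and -0.01 for Stat6. As fitted they were -0.08, -0.25 and -0.15. Stat4, Socs2, Socs3 and Cish kept their directions from naive to TEM under this scaling.

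The call on Stat3 in YFP- cells held in 12 of 24 alternatives (adjusted p 9.99e-04 to 0.585). It was lost under quantile normalization (0.585), with no filter (0.0514), with only the 6 libraries compared (0.0532), and without TEM YFP+ replicate 1 (0.058) or 3 (0.0537), TEM YFP- replicate 1 (0.0762), 2 (0.0656) or 3 (0.157), naive YFP+ replicate 2 (0.0529), naive YFP- replicate 1 (0.147) or 2 (0.0839), or the 4 replicate 2 libraries (0.102). The call on Stat6 in YFP- cells held in 20 of 24 alternatives (adjusted p 2.22e-04 to 0.0871) and was lost without TEM YFP- replicate 2 (0.0751) or 3 (0.0547), or naive YFP- replicate 1 (0.0871) or 3 (0.0525). The Stat4 and Stat5b calls held in 24 of 24 in both YFP- and YFP+ cells.

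Stat5a had 5944, 5249.5 and 5231 normalized counts in the naive YFP- libraries, 5622, 4992 and 4971 in naive YFP+, 5371, 5686 and 4794 in TEM YFP- and 4500.0, 5044 and 4358 in TEM YFP+. Neighbouring groups overlapped throughout the order of its means, which ran naive YFP-, TEM YFP-, naive YFP+ and TEM YFP+. No comparison of Stat5a passed limma's test, and 0 of 5 had an unadjusted p under 0.05. YFP+ against YFP- TEM cells gave -0.19 on the log2 scale (SE 0.09, unadjusted p 0.0643, adjusted p 0.34) and TEM against naive YFP+ cells -0.17 (SE 0.09, adjusted p 0.177). STAT5A and STAT5B both relay IL-2 family cytokines, and the ratio of Stat5b to Stat5a normalized counts was 3.51, 3.63 and 3.46 in naive YFP- libraries and 3.50, 3.64 and 3.50 in naive YFP+. In TEM YFP- libraries it was 2.99, 2.46 and 2.89 and in TEM YFP+ 3.31, 2.80 and 3.09. Every naive ratio was above every TEM ratio, and the ratio of normalized counts in a library does not depend on its size factor.

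Socs2 encodes an inhibitor best known from growth hormone and STAT5 signalling. It had 66.8, 57.3 and 91.0 normalized counts in the naive YFP- libraries, 34.6, 47.2 and 55.8 in naive YFP+, 908, 905 and 840.4 in TEM YFP- and 1879, 1544 and 2159.6 in TEM YFP+. The 4 groups did not overlap in any neighbouring pair: the 3 TEM YFP+ libraries were highest, the TEM YFP- libraries next, then naive YFP-, and naive YFP+ lowest. The naive values rest on 28 to 79 reads per library and the TEM values on 825 to 2272.

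Socs2 rose from naive to TEM in YFP- cells (log2 fold change 3.63, SE 0.22, adjusted p 6.98e-08, 12.4-fold) and in YFP+ cells (log2 fold change 5.32, SE 0.22, adjusted p 5.80e-09, 40.1-fold). Under quantile normalization these log2 fold changes were 2.92 and 4.81. Measured from the median of all genes they went from 3.58 to 3.11 and from 5.29 to 4.94. Between YFP+ and YFP- TEM cells Socs2 rose 2.08-fold (log2 fold change 1.06, SE 0.22, adjusted p 0.00937). That call held in 22 of 24 alternatives (adjusted p 7.24e-08 to 0.0576) and was lost without TEM YFP+ replicate 3 (0.0576), or TEM YFP- replicate 3 (0.0504). In naive cells the fitted log2 fold change for YFP+ against YFP- was -0.63 (SE 0.22, unadjusted p 0.013, adjusted p 1), and no alternative called it. The difference between the YFP effects in TEM and naive cells was tested as an interaction and was 1.69 on the log2 scale (SE 0.31, 95% confidence interval 1.02 to 2.36, adjusted p 0.0104). The interaction passed in 23 of 23 alternatives (adjusted p 1.43e-06 to 0.0379).

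Socs1 encodes an inhibitor of JAK kinases after interferon gamma and IL-2 family cytokines. It had 2586, 2879 and 2142 normalized counts in the naive YFP- libraries, 2604, 2926 and 2203 in naive YFP+, 2326, 2623 and 2289.9 in TEM YFP- and 3649.8, 3583 and 3076 in TEM YFP+. The 3 TEM YFP+ libraries were above the other 9, which overlapped across their 3 groups. Socs1 rose between YFP- and YFP+ TEM cells (log2 fold change 0.51, SE 0.13, adjusted p 0.0306), a 1.42-fold difference, and from naive to TEM in YFP+ cells (log2 fold change 0.42, SE 0.13, adjusted p 0.0192). In YFP- cells TEM against naive gave -0.06 on the log2 scale (SE 0.13, adjusted p 0.709).

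The YFP call in TEM cells held in 19 of 24 alternatives (adjusted p 6.59e-04 to 0.131) and was lost without TEM YFP+ replicate 1 (0.12) or 2 (0.0891), TEM YFP- replicate 1 (0.108) or 3 (0.131), or the 4 replicate 2 libraries (0.0529). The call from naive to TEM in YFP+ cells held in 21 of 24 (adjusted p 3.86e-04 to 0.0899) and was lost without TEM YFP+ replicate 1 (0.0666) or 2 (0.0592), or naive YFP+ replicate 3 (0.0899). The interaction for Socs1 was 0.48 (SE 0.18, adjusted p 0.247), and with the replicate number as a block its adjusted p was 0.0152. Over 23 alternatives it ran from 0.0121 to 0.49, and 2 passed.

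Cish, whose product CIS is a STAT5-induced inhibitor of IL-2 receptor signalling, had 742, 736 and 891 normalized counts in the naive YFP- libraries, 627, 722 and 688 in naive YFP+, 4005, 2921 and 3965 in TEM YFP- and 4471, 3396 and 5048 in TEM YFP+. All 6 TEM libraries were above all 6 naive libraries, the TEM groups overlapped, and the naive YFP+ libraries were all below the naive YFP- ones. Cish rose from naive to TEM in YFP- cells (log2 fold change 2.19, SE 0.16, adjusted p 2.80e-07, 4.56-fold) and in YFP+ cells (log2 fold change 2.65, SE 0.16, adjusted p 7.64e-08, 6.26-fold), in 24 of 24 alternatives each. YFP+ against YFP- gave 0.24 on the log2 scale in TEM cells (SE 0.16, adjusted p 0.53) and -0.21 in naive cells (SE 0.16, adjusted p 1).

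Socs3, which encodes an inhibitor of receptors that use the gp130 chain, had 17848, 27312 and 14604 normalized counts in the naive YFP- libraries, 17113, 26046 and 14440.0 in naive YFP+, 5649, 9515 and 5474 in TEM YFP- and 4524, 9850.3 and 4651 in TEM YFP+. Every naive library was above every TEM library, and replicate 2 was the highest of its group in 4 of 4 groups. Socs3 fell from naive to TEM in YFP- cells (log2 fold change -1.53, SE 0.34, adjusted p 0.00228) and in YFP+ cells (log2 fold change -1.65, SE 0.34, adjusted p 0.00177), in 24 of 24 alternatives each. Without the replicate 2 libraries the call remained in both comparisons, as it did without any single library. YFP+ against YFP- gave log2 fold changes of -0.17 in TEM cells (SE 0.34, adjusted p 0.904) and -0.05 in naive cells (SE 0.34, adjusted p 1).

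On the log2 scale replicate 2 lay 0.56 above its group mean for Socs3 on average, and Socs3 was the 1 gene of the 9 with replicate 2 highest in all 4 groups. Of all 15587 genes tested, 816 (5.24%) had that pattern. Among genes known to be induced by STAT3 it was seen for 5 of 10 (Batf, Maf, Il21, Bcl3 and Junb), by STAT4 for 3 of 9 (Ifng, Gadd45g and Gadd45b), by STAT5 for 1 of 14 (Pim1) and by STAT6 for 0 of 7. Replicate 3 was the lowest in 4 of 4 groups for Stat3, Stat5a, Stat5b and Socs1 (4.61% of all genes), replicate 1 the highest for Stat5b and Stat6 (7.45%) and replicate 2 the lowest for Stat6 (7.35%). What the replicate numbers share was not tested.

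**Figure D1:**
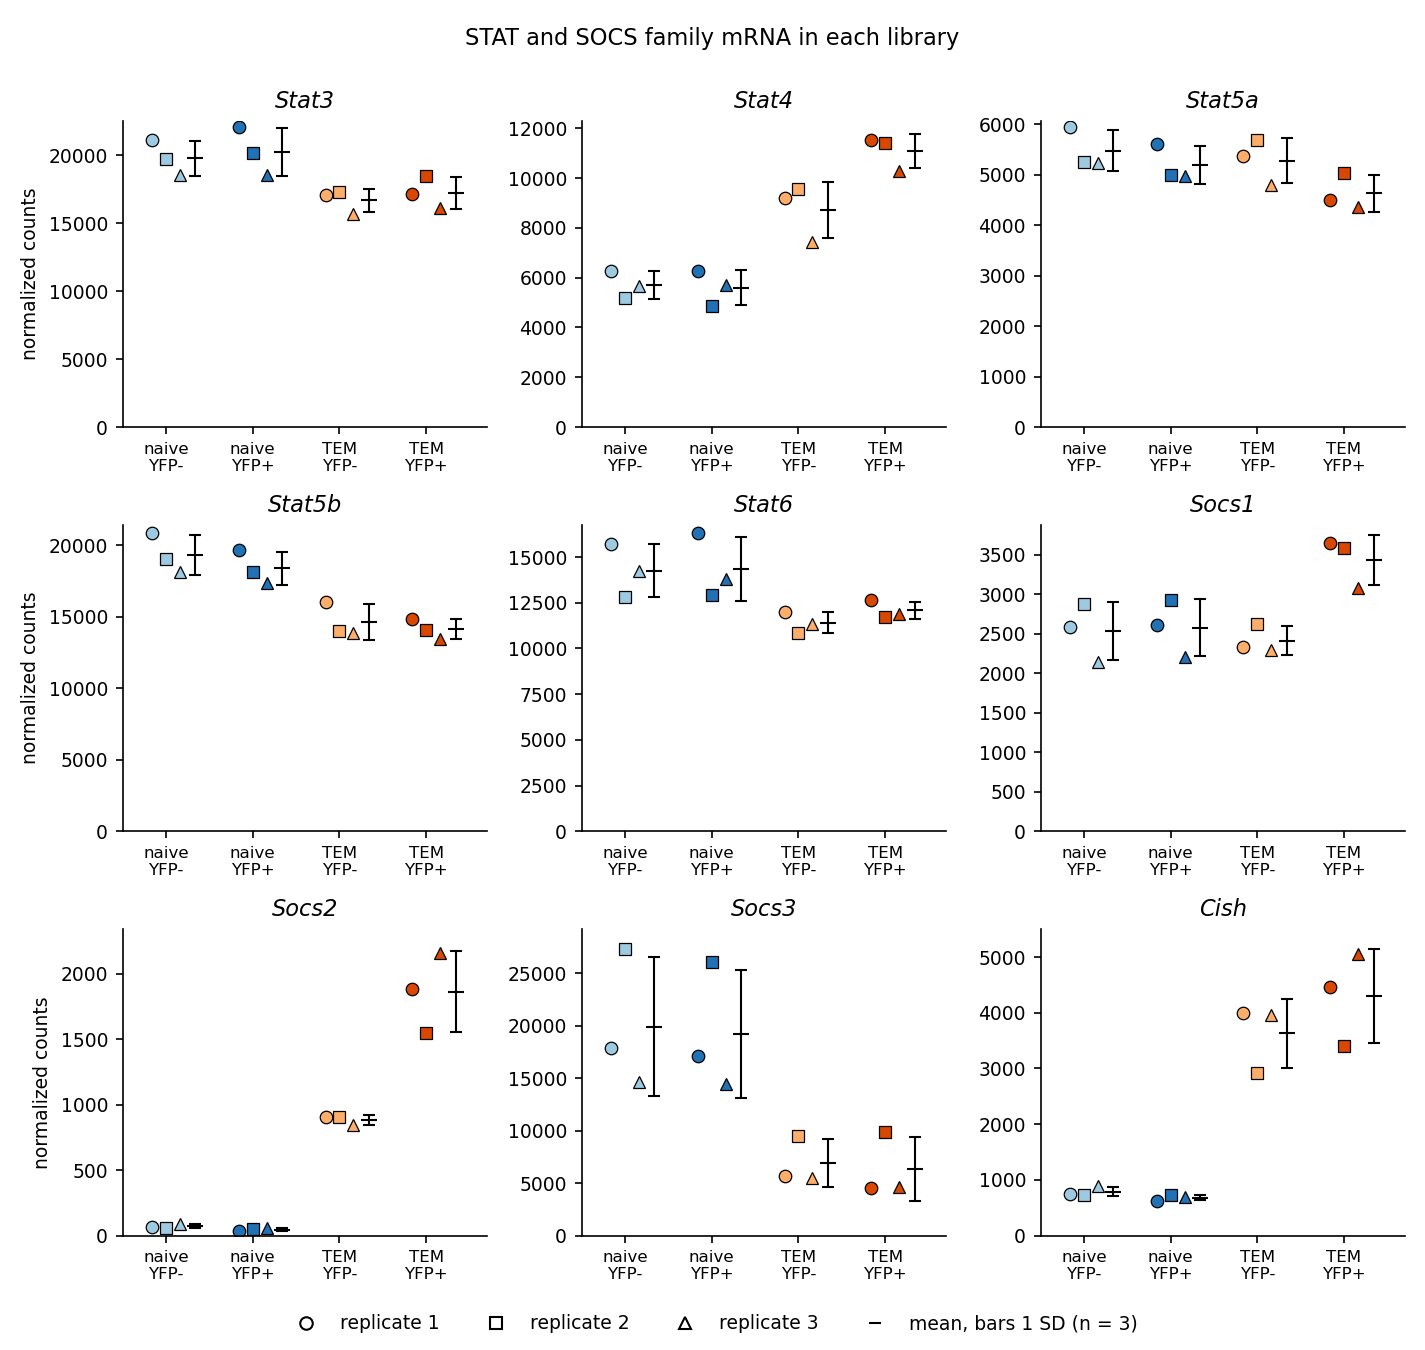
Normalized counts of the 9 genes in each of the 12 libraries, with marker shape for the replicate number and bars for the mean and 1 SD of each group (n = 3). The TEM YFP+ libraries of Socs1 (3076 to 3649.8) and Socs2 (1544 to 2159.6) lie above all other libraries, and replicate 2 is highest in each group for Socs3.

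Between YFP+ and YFP- TEM cells 2 of the 9 genes were called higher (Socs1 and Socs2), where 2.3% of the 15587 genes tested were called higher and 4.67% lower. A gene was called when limma's adjusted p over all genes tested was 0.05 or less. Groups of 3 libraries did not overlap for 3 of 9 genes (Stat4, Socs1 and Socs2, all higher in YFP+), against 25% of all genes. The median log2 fold change of the 9 genes was 0.08, and that of all genes -0.01. Measured from the median of all genes, that of the 9 turned from 0.10 to -0.03 under quantile normalization. With the replicate number as a block 3 of the 9 genes passed, and the count over all genes went from 1087 to 1869. Without 1 library the number of the 9 genes called ran from 0 to 2: it was 0 without TEM YFP- replicate 3 and 1 without TEM YFP- replicate 1 or any 1 of the 3 TEM YFP+ libraries, where the values for Socs1 and Socs2 are given above. Without TEM YFP- replicate 3 the count over all genes was 638.

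Between YFP+ and YFP- naive cells limma called 0 of the 9 genes, where 0.00642% of all genes were called, 1 of 15587. At an unadjusted p under 0.05 there was 1 of the 9 (Socs2) and 3.32% of all genes (518). Neither edgeR nor DESeq2 called any of the 9. Over all genes edgeR called 2 and DESeq2 14, limma with the replicate number as a block 6, and limma 0 without naive YFP- replicate 1 or 2 or naive YFP+ replicate 1 or 3. Groups did not overlap for 2 of 9 genes (Socs2 and Cish, both lower in YFP+), against 5.38% of all genes. The median log2 fold change was -0.05 for the 9 genes and 0.01 for all genes.

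From naive to TEM in YFP- cells 3 of the 9 genes were called higher (Stat4, Socs2 and Cish) and 4 lower (Stat3, Stat5b, Stat6 and Socs3), where 29.9% of all genes were called higher and 19.9% lower. In YFP+ cells 4 were called higher (Stat4, Socs1, Socs2 and Cish) and 2 lower (Stat5b and Socs3), where 24.7% of all genes were higher and 16.7% lower. There 8 of the 9 passed with the replicate number as a block, with Stat3 and Stat6 added. Groups did not overlap for 7 of 9 genes in YFP- cells, against 59% of all genes, and for 8 of 9 in YFP+ cells, against 48.7%. The median log2 fold change of the 9 genes was -0.06 in YFP- and -0.17 in YFP+ cells, and that of all genes 0.05 and 0.03. Under quantile normalization the former, measured from the median of all genes, turned from -0.11 to 0.14 and from -0.20 to 0.06. These comparisons share no library with each other, but each shares libraries with the YFP comparisons. For the interaction 1 of the 9 genes was called, Socs2, with the YFP effect higher in TEM cells, where 0.828% of all genes were called in that direction and 2.73% in the other. An exact permutation test of 3 against 3 libraries cannot give a 2-sided p under 0.1, so none is given for single genes.

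**Figure D2:**
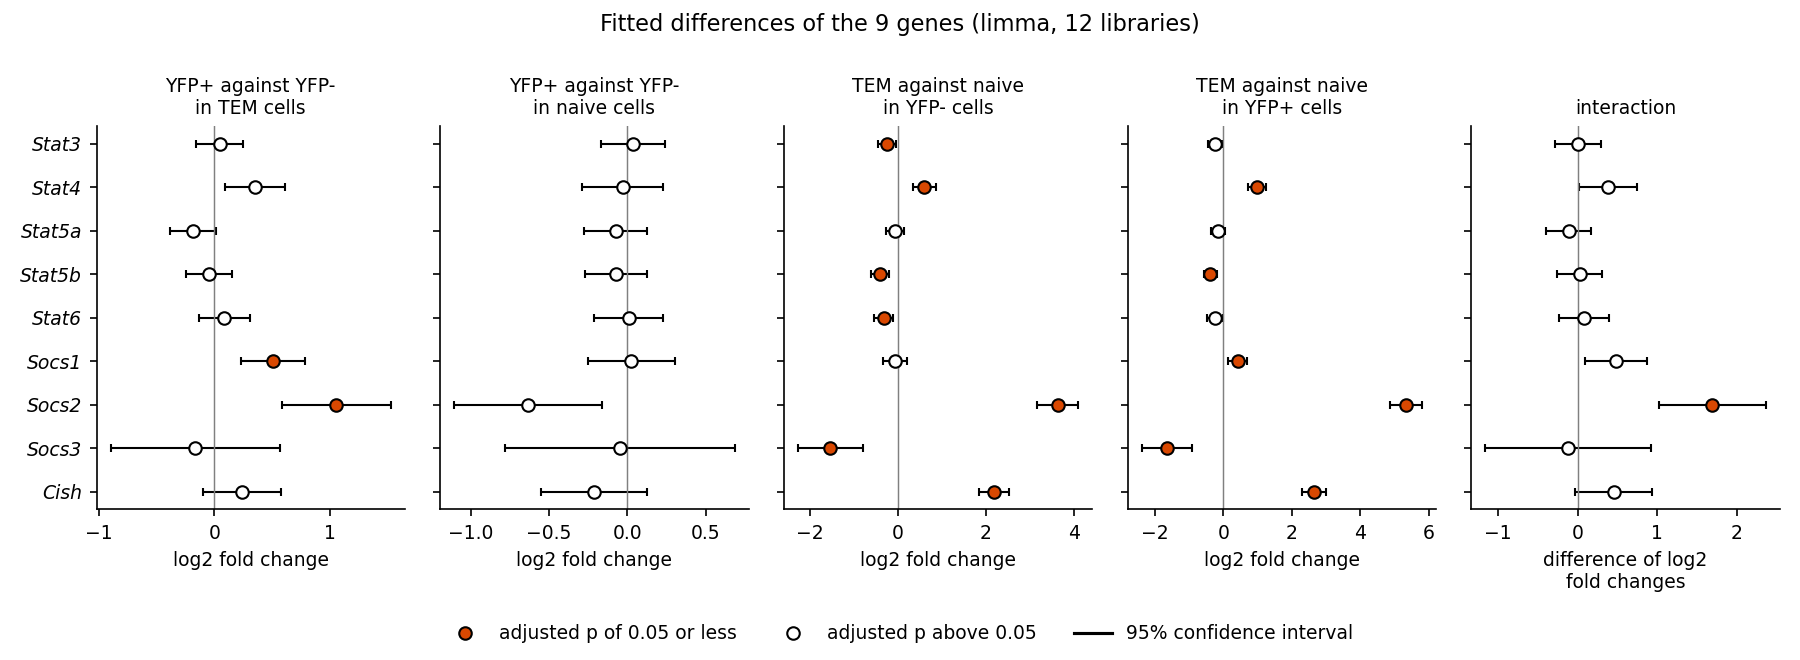
Fitted log2 differences of the 9 genes in 4 comparisons and in the interaction of YFP status with cell type, with bars for the 95% confidence interval and filled points for an adjusted p of 0.05 or less (limma, 12 libraries). Socs2 was called in 4 of the 5 panels, and the filled points of Stat3, Stat5b and Stat6 stand for falls that turned direction or shrank relative to the median of all genes under quantile normalization. As fitted under that scaling these falls stayed negative.

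Levels can be set side by side between genes only per length, so normalized counts were divided by kilobases of exon in GENCODE M21. This length counts every base that is exon in any transcript of the gene. It was 6.419 kb for Cish, nearly all of its GENCODE span (chr9:107296026-107302784), and 9.531 kb for Socs2. The order of genes and the sums below rest on these lengths, and no other length was tried. On that scale Socs3 was the most abundant of the 9 in naive cells, at 6891 ± 2284 normalized counts per kb in YFP- and 6641 ± 2102 in YFP+ (SD, n = 3). Stat5b, Stat6, Stat3, Stat4, Socs1, Stat5a and Cish followed in that order in both naive groups, and Socs2 was lowest at 7.52 ± 1.82 and 4.81 ± 1.12 per kb. In TEM YFP+ cells Stat4 had the highest mean, at 2861 ± 176 per kb, beside Stat6 at 2746 ± 108, Stat5b at 2556 ± 126 and Socs3 at 2194 ± 1051, and was the highest in 1 of the 3 libraries. In TEM YFP- cells Stat4 was at 2253 ± 292 per kb, below Stat5b in 3 of 3 libraries, below Stat6 in 2 of 3 and above Socs3 in 2 of 3. Cish passed Stat5a in TEM YFP+ cells, at 671 ± 131 against 649.7 ± 50.8 per kb, within 1 SD of Cish. Socs2 stayed the lowest of the 9 in every group, with 195 ± 32.3 per kb in TEM YFP+ cells.

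Summed over the 5 STAT genes the level per kb was 11047.6 ± 834 in naive YFP-, 10884 ± 952 in naive YFP+, 9979 ± 619 in TEM YFP- and 10620.1 ± 463 in TEM YFP+ (SD, n = 3), and the libraries of naive and TEM groups overlapped. The sum over the 4 inhibitor genes was 7893 ± 2391 and 7638 ± 2224 per kb in the naive groups and 3868 ± 759.6 and 4241 ± 943 in the TEM groups, with every naive library above every TEM library. Without Socs3 the order turned, a sum added after the values were seen: Socs1, Socs2 and Cish came to 1002 ± 113 and 997 ± 127 per kb in naive YFP- and YFP+ and to 1488 ± 33.8 and 2048 ± 115 in TEM YFP- and YFP+, with every TEM library above every naive one. The ratio of Socs3 to Cish normalized counts was 25.9 ± 10.5 in naive YFP-, 28.1 ± 7.58 in naive YFP+, 2.02 ± 1.07 in TEM YFP- and 1.61 ± 1.12 in TEM YFP+. The ratio of Socs2 to Cish was 0.0901, 0.0778 and 0.102 in naive YFP- libraries, 0.0552, 0.0654 and 0.0811 in naive YFP+, 0.227, 0.310 and 0.212 in TEM YFP- and 0.420, 0.455 and 0.428 in TEM YFP+. The 3 TEM YFP+ values were the highest of the 12.

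**Figure D3:**
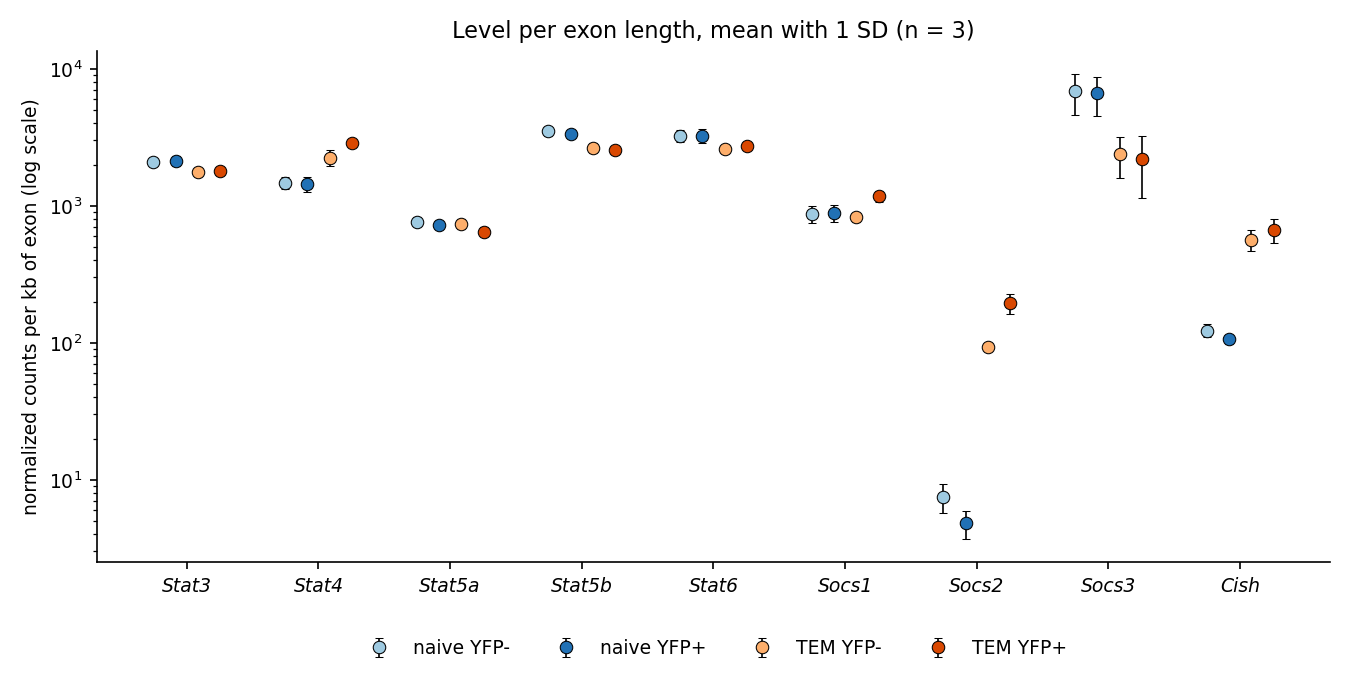
Normalized counts per kb of exon for the 9 genes in the 4 groups on a log axis, as mean and 1 SD (n = 3). By group mean Socs3 leads in naive cells and Stat4 in TEM YFP+ cells, and Socs2 spans from 4.81 to 195 per kb.

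Over the 12 libraries, which fall into 4 groups and so are not independent points, log2 values of Socs2 went with those of Cish (Pearson r 0.988) and Stat4 (0.935). Socs3 ran against Cish (r -0.926). Among the 11692 genes averaging 50 normalized counts or more, the 3 whose log2 values were most like those of Socs2 were Il12rb1 (r 0.995), Il2rb (0.992) and Tbx21 (0.990). For Socs1 they were Ctsw (r 0.924), Spryd7 (0.893) and Selenon (0.881). These are descriptions of the 12 libraries.

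Counts called in the lists from here on stand beside these shares of all genes. From naive to TEM 29.9% were called higher and 19.9% lower in YFP- cells, and 24.7% and 16.7% in YFP+ cells. For YFP+ against YFP- TEM cells the shares were 2.3% and 4.67%, and for the interaction 0.828% and 2.73%. The JAK kinases that phosphorylate STATs include Jak1, at 76504 ± 11033 normalized counts in naive YFP-, 78857 ± 14016 in naive YFP+, 43087 ± 2779 in TEM YFP- and 53258 ± 5325 in TEM YFP+ cells (SD, n = 3). In YFP- cells 2 of the 4 JAK genes rose from naive to TEM, Jak2 (log2 fold change 1.05, adjusted p 1.56e-05) and Tyk2 (0.61, adjusted p 1.83e-04), and 1 fell, Jak1 (-0.82, adjusted p 6.72e-04), with a median of 0.36. Relative to the median of all genes that fall of Jak1 went from -0.87 to -0.14 under quantile normalization, and that rise of Tyk2 from 0.56 to 0.86. In YFP+ cells the same 3 genes were called, Jak2 (1.05, adjusted p 2.21e-05) and Tyk2 (0.56, adjusted p 5.11e-04) higher and Jak1 (-0.56, adjusted p 0.0109) lower, with a median of 0.34, but relative to the median of all genes Jak1 turned to 0.07 under quantile normalization (adjusted p 0.467, range 6.81e-05 to 0.467). Jak3 ran from 14678 to 15961 in the group means and was not called.

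Of the 4 other SOCS genes Socs5 rose from naive to TEM in YFP- (log2 fold change 0.93, adjusted p 0.00199) and YFP+ cells (0.91, adjusted p 0.00299). Socs4 fell in YFP- cells (-0.33, adjusted p 0.0339, range 0.00158 to 0.233) but not without TEM YFP- replicate 1 (0.0712), 2 (0.102) or 3 (0.0511), naive YFP- replicate 2 (0.133), or the 4 replicate 2 libraries (0.233). Socs7 rose in YFP+ cells (0.22, adjusted p 0.0457), a call that held in 10 of 24 alternatives (range 0.0111 to 0.183) and was lost without TEM YFP+ replicate 1 (0.0915), 2 (0.0639) or 3 (0.129), TEM YFP- replicate 1 (0.06), 2 (0.0549) or 3 (0.059), naive YFP+ replicate 2 (0.174) or 3 (0.0901), naive YFP- replicate 2 (0.0523) or 3 (0.0553), or the 4 replicate 2 libraries (0.183). It was also lost with no filter (0.0533), with only the 6 libraries compared (0.101) and under quantile normalization (0.0725), where the log2 value relative to the median of all genes went from 0.18 to 0.30. In YFP- as in YFP+ cells 3 of the 4 passed with the replicate number as a block, 2 higher and 1 lower. Without naive YFP- replicate 1 limma called 2 higher in YFP- cells, and without naive YFP+ replicate 1 it called 1 lower in YFP+ cells.

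SOCS proteins recruit a ubiquitin ligase through elongins, Cul5 and Rnf7. Of those 4 partner genes limma called 0 from naive to TEM in YFP- cells (1 at an unadjusted p under 0.05, 1 in edgeR, 0 in DESeq2 and 1 with the replicate number as a block). In YFP+ cells Cul5 fell (-0.28, adjusted p 0.0227, range 0.00222 to 0.0946), but not without TEM YFP+ replicate 1 (0.0946), naive YFP+ replicate 2 (0.0688) or 3 (0.0721), or the 4 replicate 2 libraries (0.0588). Under quantile normalization that fall went from -0.31 to -0.18 relative to the median of all genes. The fall of Pias1, given below, went from -0.51 to -0.26 in YFP- cells and from -0.37 to -0.21 in YFP+ cells. PIAS proteins and phosphatases also damp the pathway. In YFP- cells 3 of the 10 rose from naive to TEM, with Ptpn11 (1.69, adjusted p 2.48e-05) and Pias3 (1.45, adjusted p 7.18e-05) as the largest, and 2 fell, Pias2 (-0.67, adjusted p 1.89e-05) and Pias1 (-0.47, adjusted p 0.0075). Those counts are near the shares of all genes, 29.9% higher and 19.9% lower. In YFP- cells 9 of 10 passed with the replicate number as a block. In YFP+ cells 2 of 10 rose and 3 fell, and 4 rose and 3 fell with the block. Only 1 fell without TEM YFP+ replicate 2 or 3, TEM YFP- replicate 1, or naive YFP+ replicate 1 or 3. The call on Pias1 among the 3 (-0.34, adjusted p 0.0441, range 0.00165 to 0.161) was lost with only the 6 libraries compared (0.0757) and without TEM YFP+ replicate 2 (0.137) or 3 (0.138), TEM YFP- replicate 1 (0.0565) or 3 (0.0515), naive YFP+ replicate 1 (0.161) or 3 (0.0637), naive YFP- replicate 3 (0.0556), or the 4 replicate 2 libraries (0.09).

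In YFP+ against YFP- TEM cells limma called 0 of the 4 JAK, 4 other SOCS and 4 ligase genes, with 0 at an unadjusted p under 0.05 in each list and 0 in edgeR and DESeq2. When the replicate number was a block, 1 JAK gene passed. Of the 10 PIAS and phosphatase genes limma called 2, both higher, with a list median of 0.02, while 3 passed in DESeq2 and 3, 1 of them lower, with that block. A lower call was also made without naive YFP+ or naive YFP- replicate 2. The 2 were Ptpn2 (0.35, adjusted p 0.0409), which dephosphorylates JAKs and STATs, and Dusp2 (0.58, adjusted p 0.0406). Ptpn2 had 2274, 2334 and 2093 normalized counts in the TEM YFP- libraries and 2904, 2756 and 2848 in TEM YFP+, so the groups did not overlap. Its call held in 16 of 24 alternatives (range 0.00861 to 0.186) and was lost without TEM YFP+ replicate 1 (0.132), 2 (0.069) or 3 (0.119), TEM YFP- replicate 1 (0.0948), 2 (0.0652) or 3 (0.186), naive YFP- replicate 2 (0.0534), or the 4 replicate 2 libraries (0.123). The Dusp2 call held in 16 of 24 (range 4.42e-04 to 0.202) and was lost without TEM YFP+ replicate 1 (0.159), 2 (0.0828) or 3 (0.0637), TEM YFP- replicate 2 (0.0842) or 3 (0.202), naive YFP+ replicate 3 (0.0525), naive YFP- replicate 2 (0.0505), or the 4 replicate 2 libraries (0.158).

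Receptor chains that signal to STAT5 include the IL-2 and IL-15 receptor chain Il2rb, at 37292, 34249 and 28515 normalized counts in TEM YFP- and 84391, 53436 and 59662 in TEM YFP+ libraries. The IL-7 receptor gene Il7r was at 42834, 36099 and 36195 in TEM YFP- and 77244, 56981 and 72884 in TEM YFP+. Both groups of both genes were apart. Of the 9 chains 2 rose in YFP+ TEM cells, Il2rb (log2 fold change 0.96, SE 0.16, adjusted p 0.00268) and Il7r (log2 fold change 0.84, SE 0.13, adjusted p 0.00171), and 2 fell, the GM-CSF receptor chains Csf2rb (log2 fold change -3.73, SE 0.68, adjusted p 0.00442) and Csf2ra (log2 fold change -2.07, SE 0.29, adjusted p 9.61e-04), each in 24 of 24 alternatives, with a list median of 0.07. There 4 rose and 2 fell with the replicate number as a block. For the interaction Il2rb (log2 1.40, adjusted p 0.00588) and Il2ra (1.68, adjusted p 0.0234) were called higher, and Csf2rb (-4.43, adjusted p 0.0238) and Csf2ra (-2.44, adjusted p 0.00732) lower. The Il2ra interaction (range 2.77e-04 to 0.0646) was lost without TEM YFP+ replicate 1 (0.064) or 3 (0.0646), TEM YFP- replicate 1 (0.0584) or 2 (0.0554), naive YFP+ replicate 2 (0.0501), or naive YFP- replicate 3 (0.0643), and that of Csf2rb (range 4.68e-04 to 0.0782) without TEM YFP+ replicate 2 (0.0529), TEM YFP- replicate 1 (0.0652) or 3 (0.0782), or naive YFP- replicate 1 (0.0657). In YFP- cells 7 of 9 chains rose from naive to TEM, with Csf2rb (6.65, adjusted p 5.02e-06) and Il9r (6.00, adjusted p 4.06e-07) as the largest, and Il7r fell (-0.66, adjusted p 0.00105), with a median of 1.76, and 2 fell with the block. The dendritic cell and macrophage marker sums, given below, rose in the same comparison, and their part in these rises was not tested. Relative to the median of all genes the fall of Il7r went from -0.71 to -0.07 under quantile normalization. In YFP+ cells 7 of 9 rose, Il9r (5.49, adjusted p 1.17e-06) and Il2rb (4.62, adjusted p 1.62e-09) most, with a median of 1.25.

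Of the 4 chains that signal to STAT4 and STAT6, both IL-12 receptor chains rose in YFP+ TEM cells, Il12rb2 (log2 fold change 2.06, SE 0.40, adjusted p 0.00694) and Il12rb1 (log2 fold change 0.66, SE 0.14, adjusted p 0.00906), and the IL-13 receptor gene Il13ra1 fell (log2 fold change -2.46, SE 0.59, adjusted p 0.0237), with a median of 0.44. Il12rb2 had 639, 502 and 841 normalized counts in TEM YFP- and 4005, 1691 and 2912 in TEM YFP+ libraries, which did not overlap. The Il12rb1 call (range 1.88e-05 to 0.0538) was lost without TEM YFP+ replicate 3 (0.0538), and the Il13ra1 call (range 1.63e-04 to 0.124) without TEM YFP+ replicate 1 (0.0858) or 3 (0.0973), or TEM YFP- replicate 1 (0.0602), 2 (0.0523) or 3 (0.124). The interaction of Il12rb1 was 1.00 (adjusted p 0.0131). Between naive and TEM cells 3 of the 4 rose and Il4ra fell, in YFP- (-2.11, adjusted p 1.98e-06) and in YFP+ cells (-1.99, adjusted p 4.74e-06), with list medians of 4.25 and 3.54.

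Of the 7 chains that signal to STAT3, the IL-23 receptor gene Il23r rose (log2 fold change 1.73, SE 0.41, adjusted p 0.0226) and the IL-10 receptor gene Il10ra fell (log2 fold change -0.54, SE 0.12, adjusted p 0.0158) in YFP+ TEM cells, with a median of -0.08. Il23r was at 0 in all 6 naive libraries and had 99.2, 64.5 and 117 normalized counts in TEM YFP- and 387, 199.9 and 362 in TEM YFP+ libraries. The Il23r call (range 2.78e-04 to 0.123) was lost without TEM YFP+ replicate 1 (0.123) or 3 (0.111), TEM YFP- replicate 1 (0.0688), 2 (0.107) or 3 (0.0519), or the 4 replicate 2 libraries (0.0504), and the Il10ra call (range 8.72e-04 to 0.0796) without TEM YFP+ replicate 3 (0.0796), or TEM YFP- replicate 1 (0.0779) or 3 (0.0632). Without TEM YFP+ replicate 2, 2 of the 7 fell. The interaction of Il10ra was called lower (log2 -0.77, adjusted p 0.0269, range 0.00153 to 0.0746) but not without TEM YFP+ replicate 3 (0.0736), TEM YFP- replicate 1 (0.0689) or 3 (0.0746), naive YFP+ replicate 2 (0.0587), or naive YFP- replicate 1 (0.0556) or 3 (0.0746). In YFP- as in YFP+ cells 3 of 7 rose and 3 fell from naive to TEM, and the IL-6 receptor chains Il6ra (-1.04, adjusted p 6.78e-06) and Il6st (-1.05, adjusted p 2.08e-05) fell furthest in YFP+ cells. Of the 4 interferon receptor chains Ifngr2 fell in YFP+ TEM cells (log2 fold change -1.44, SE 0.27, adjusted p 0.00521), and 3 passed with the replicate number as a block. Ifnar2 rose from naive to TEM in YFP- (0.93, adjusted p 1.64e-05) and YFP+ cells (0.67, adjusted p 3.30e-04) while Ifngr2 (-1.57, adjusted p 3.72e-04 and -2.98, adjusted p 2.81e-06) and Ifnar1 (-0.42, adjusted p 0.00453 and -0.46, adjusted p 0.00307) fell in both. Relative to the median of all genes the fall of Ifnar1 went from -0.47 to -0.13 in YFP- and from -0.49 to -0.27 in YFP+ cells under quantile normalization. With the block 2 of these 4 chains rose in both, and 2 rose in YFP+ cells without naive YFP+ replicate 1.

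Genes known to be induced by STAT5 include the survival gene Bcl2, with 4797, 5139 and 4473 normalized counts in TEM YFP- and 9779, 10283 and 12290.4 in TEM YFP+ libraries. Id2, an inhibitor of E proteins, had 12916, 12230.4 and 11764 and 27568, 18185 and 27353 in the same groups. For both genes the YFP+ libraries were above the YFP- ones. They were the 2 of 14 that rose in YFP+ TEM cells, Bcl2 (log2 fold change 1.16, SE 0.10, adjusted p 9.57e-05) and Id2 (log2 fold change 0.96, SE 0.15, adjusted p 0.00153), in 24 of 24 alternatives each, with a list median of 0.19. With the replicate number as a block 5 of 14 passed. Between naive and TEM cells 6 of 14 rose and 5 fell in YFP- as in YFP+ cells, with medians of 0.38 and 0.26. The falls in YFP+ cells were 2 without TEM YFP+ replicate 2 or naive YFP+ replicate 3, and 3 without TEM YFP+ replicate 3 or naive YFP+ replicate 2. Bcl2 was among those that fell in YFP- cells (-1.20, adjusted p 1.41e-06), and its interaction was 0.80 (adjusted p 0.0109).

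Of 9 genes known to be induced by STAT4, 2 rose in YFP+ TEM cells, Il12rb2 (above) and Tbx21 (log2 fold change 0.68, SE 0.19, adjusted p 0.0477), the gene of the T helper 1 factor T-bet, and 1 fell, Hlx (log2 fold change -2.85, SE 0.67, adjusted p 0.0209), with a median of 0.68. Ifng had 545, 1291 and 561 normalized counts in TEM YFP- and 536, 1930.3 and 1073 in TEM YFP+ libraries, which overlap. The Tbx21 call held in 14 of 24 alternatives (range 3.96e-05 to 0.21) and was lost without TEM YFP+ replicate 1 (0.15), 2 (0.0617) or 3 (0.207), TEM YFP- replicate 1 (0.152), 2 (0.0765) or 3 (0.21), naive YFP- replicate 2 (0.0536), or the 4 replicate 2 libraries (0.0596). It was also lost under quantile normalization (0.202) and with a prior count of 0.5 (0.0516). The Hlx call (range 3.71e-05 to 0.119) was lost without TEM YFP+ replicate 1 (0.0624) or 2 (0.0725), TEM YFP- replicate 3 (0.119), or the 4 replicate 2 libraries (0.0723). Without naive YFP+ replicate 1, 4 of the 9 rose. The interaction of Hlx was called lower (log2 -4.25, adjusted p 0.0277, range 2.89e-04 to 0.212) but not without TEM YFP+ replicate 1 (0.0618) or 2 (0.0601), TEM YFP- replicate 3 (0.09), naive YFP+ replicate 2 (0.0548), naive YFP- replicate 1 (0.0716) or 2 (0.0624), or the 4 replicate 2 libraries (0.212). With the replicate number as a block 6 of 9 passed. From naive to TEM 7 of 9 rose in YFP- cells and 8 of 9 in YFP+ cells, with medians of 4.91 and 1.92, and Ifng among them passed the filter through TEM libraries only.

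Of 10 tested genes known to be induced by STAT3, Il23r rose in YFP+ TEM cells, as given above, with a list median of 0.12, and 8 of 10 rose from naive to TEM in YFP- as in YFP+ cells. Il23r and Il21 among them passed the filter through TEM libraries only. Il17a, the gene that completes the list of 11, did not pass the filter on low counts. Of 7 tested genes known to be induced by STAT6 limma called 0 in YFP+ against YFP- TEM cells (1 at an unadjusted p under 0.05, 0 in edgeR and 1 in DESeq2), with a median of 0.28. From naive to TEM 6 of the 7 rose in both YFP- and YFP+ cells, with Ccr4 (6.07, adjusted p 3.63e-07 and 6.81, adjusted p 1.79e-07) and Ccr8 (5.27, adjusted p 1.65e-06 and 4.22, adjusted p 1.52e-05) as examples, and Il4ra fell. Among the 6, Il4 and Il13 passed the filter through TEM libraries only. Il5 did not pass the filter and Il24 was not in the table. In YFP+ against YFP- naive cells limma, edgeR and DESeq2 called 0 of the 84 genes of these pathway lists, and 6 had an unadjusted p under 0.05. When the replicate number was a block, 1 passed.

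**Figure D4:**
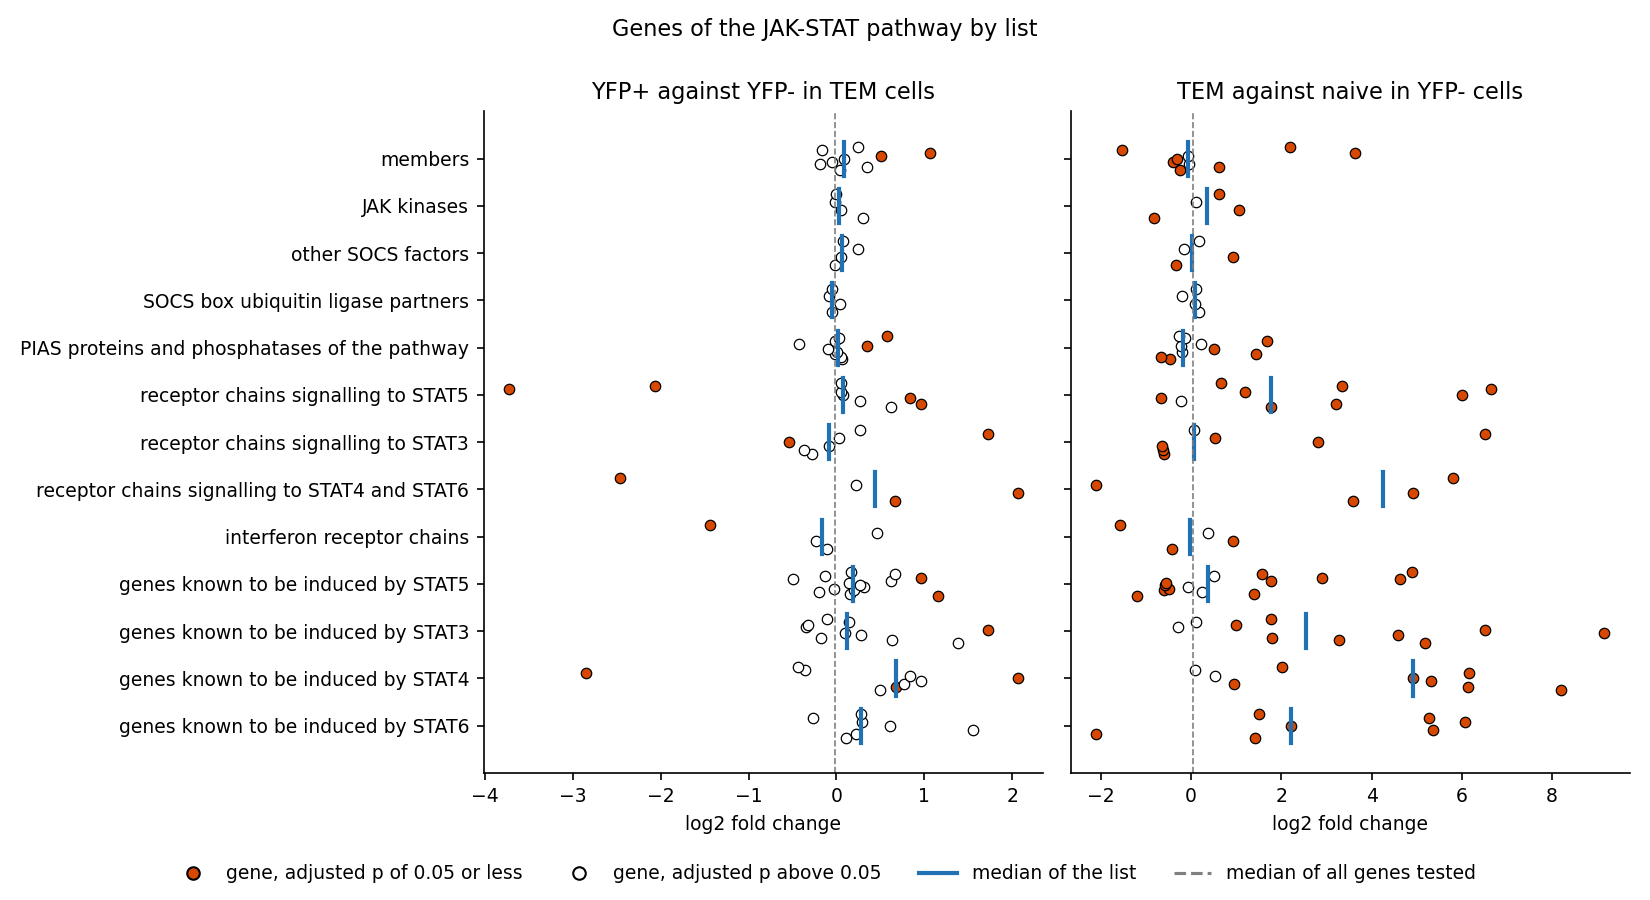
Log2 fold change of each tested gene of the JAK-STAT lists, for YFP+ against YFP- TEM cells and for TEM against naive YFP- cells, with filled points for an adjusted p of 0.05 or less, a blue bar for the list median and a dashed line for the median of all genes. The lists of JAK kinases, other SOCS factors and ligase partners have no filled point between YFP+ and YFP- TEM cells, and the list medians of genes known to be induced by STAT4 stand at 0.68 and 4.91.

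Markers of the sorted cells and of other cells were read from the same libraries. Cd44, 1 of the markers of the sort, had 2831 ± 382 normalized counts in naive YFP-, 2940.4 ± 541 in naive YFP+, 22014 ± 363 in TEM YFP- and 26861 ± 2268 in TEM YFP+ cells (SD, n = 3). Of 6 T cell genes, Cd4 the most abundant at 62916 ± 4036 normalized counts in TEM YFP- and 60154 ± 6554 in TEM YFP+ cells, limma, edgeR and DESeq2 called 0 in YFP+ against YFP- TEM cells, with 0 at an unadjusted p under 0.05.

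Other lists moved with YFP in TEM cells, the comparison in which Socs1 and Socs2 were called. The plasmacytoid dendritic cell list fell in 6 of 7 genes, besides Cox6a2, which passed the filter only through the TEM YFP- libraries, and its sum was 13651, 8025 and 14894 normalized counts in TEM YFP- and 2682, 2181 and 2606 in TEM YFP+ libraries, with Bst2 the most abundant gene over the 12 libraries. The conventional dendritic cell list fell in 4 of 5, with sums of 10302, 7545 and 15464 and 935, 446 and 948, most of it Itgax (8001 ± 2569.7 and 465 ± 193). The macrophage, monocyte and neutrophil list fell in 2 of 7 (Itgam and Adgre1), with sums of 7387, 6057 and 11623 and 3544, 1723 and 2616 and Csf1r the most abundant gene over the 12 libraries. In each TEM YFP- library Adgre1 was above Csf1r. Cd14 of that list was not called but was higher in each YFP+ library, at 32.8, 36.3 and 21.4 in TEM YFP- and 239, 115 and 97.9 in TEM YFP+, as were S100a8 and S100a9. The Adgre1 call (range 0.00105 to 0.0839) was lost without TEM YFP+ replicate 2 (0.0591) or 3 (0.0539), or TEM YFP- replicate 1 (0.0519) or 3 (0.0839). Without naive YFP+ replicate 2, 2 genes of that list were called higher. S100a8 and S100a9 passed the filter only with the TEM YFP+ libraries. Elsewhere they reached 5 normalized counts only in naive YFP- replicate 2 (14.9 and 17.0) and naive YFP+ replicate 2 (69.9 and 158). In each of these lists every TEM YFP- sum was above every TEM YFP+ sum. Csf2rb, Csf2ra, Il13ra1 and Hlx fell in the same comparison. In the naive groups the sums of the plasmacytoid list were 2447 ± 58.6 in YFP- and 2435 ± 310.4 in YFP+, and Klk1 of that list was at 0 in all naive YFP- libraries. Those of the conventional list were 90.7 ± 29.1 and 147 ± 119.7. In TEM YFP- cells the mean sums of these lists were 12190 ± 3660 and 11104 ± 4020. That of the macrophage, monocyte and neutrophil list went from 529 ± 268 in naive YFP- to 8356 ± 2907 in TEM YFP- cells. Csf2rb, Csf2ra, Il13ra1 and Hlx were called higher from naive to TEM in YFP- cells, and the part of such cells in this was not tested.

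The gamma delta T cell list was higher in YFP+ TEM cells for 3 of 4 tested genes (Trgc1, Trgc2 and Trgc4), with sums of 473, 416 and 533 normalized counts in TEM YFP- and 3725, 1948 and 3222 in TEM YFP+ libraries. Its most abundant gene over the 12 libraries, Trdc, was at 273 ± 75.1 and 221 ± 34.6 and was not called. The NK and NKT cell list had 3 of 7 genes higher and 2 lower, besides Ncr1, with Klrk1 (3.34, adjusted p 0.00156) and Zbtb16 (3.25, adjusted p 0.00854) rising and Tyrobp (-3.72, adjusted p 0.00283), the most abundant gene of the list over the 12 libraries, falling. In each TEM YFP+ library Tyrobp was below Zbtb16, Klrk1 and Klrb1c. The other lower gene, Fcer1g (range 3.94e-04 to 0.116), was lost without TEM YFP+ replicate 2 (0.089) or 3 (0.0613), or TEM YFP- replicate 1 (0.0789) or 3 (0.116). The sums of the NK and NKT cell list were 5205, 4181 and 6695 in TEM YFP- and 6777, 3871 and 6225 in TEM YFP+ libraries, which overlap. Ncr1 was at 0 in all TEM YFP- libraries and passed the filter only through the TEM YFP+ libraries (35.4, 6.21 and 56.1). Also at 0 in TEM YFP- libraries was Sox13 of the gamma delta list, which did not pass the filter.

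The CD8 T cell list fell in 2 of 2 genes in YFP+ TEM cells, with sums of 1191, 685 and 1490.3 and 373, 187 and 293 normalized counts and Cd8b1 the more abundant. Without TEM YFP- replicate 3 only Cd8b1 was called (Cd8a 0.055). The regulatory T cell list, which shares Il2ra with the STAT5 lists, had 1 of 8 lower, Foxp3 (-0.87, adjusted p 0.045), and sums of 104918, 81383 and 81595 and 73031, 74627 and 61612, with Nrp1 the most abundant gene over the 12 libraries. Of the 8, 4 passed with the replicate number as a block. The Foxp3 call (range 5.23e-04 to 0.189) was lost in edgeR (0.0502), with only the 6 libraries compared (0.0805), and without TEM YFP+ replicate 1 (0.073) or 2 (0.146), TEM YFP- replicate 1 (0.179) or 3 (0.189), naive YFP+ replicate 1 (0.0575) or 3 (0.0586), or naive YFP- replicate 1 (0.0623). Without TEM YFP- replicate 2, 2 of the 8 fell, and without TEM YFP+ replicate 2, 1 rose. The B cell list, led by Cd22, had 1 of 6 higher, Cd79a (1.91, adjusted p 0.0383), with sums of 2519.7, 2246 and 3259 and 1701, 1427 and 1957. The Cd79a call (range 4.47e-04 to 0.161) was lost with only the 6 libraries compared (0.0566) and without TEM YFP+ replicate 1 (0.16) or 3 (0.161), TEM YFP- replicate 1 (0.106), 2 (0.0704) or 3 (0.147), or naive YFP- replicate 3 (0.0569). Without TEM YFP+ replicate 2, 3 of the 6 rose, and without naive YFP+ replicate 2, 2 rose. The erythroid list, led over the 12 libraries by Hba-a1, had sums of 858, 386 and 66.2 and 2103, 532 and 761 and 0 of 3 called by limma, edgeR or DESeq2 and 0 at an unadjusted p under 0.05. In YFP+ against YFP- naive cells limma and edgeR called 0 of the 64 marker genes tested and DESeq2 1, with 8 at an unadjusted p under 0.05, and limma called 2 with the replicate number as a block. No marker gene was at 0 in all 12 libraries, and the part of any of these cells in the levels of the 9 genes was not tested.

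In the naive YFP- and naive YFP+ libraries, in that order, the sums of normalized counts were 468, 823 and 297 and 716, 3624 and 389 for the macrophage, monocyte and neutrophil list, 278, 324 and 318 and 307, 704 and 299 for the NK and NKT cell list, 592, 659 and 578 and 589, 526 and 477 for the gamma delta T cell list. They were 1321, 1166 and 1168 and 608, 517 and 500.4 for the CD8 T cell list, 12216, 9545 and 10916 and 7884, 7157 and 6826 for the regulatory T cell list, 539, 1396 and 909 and 719.8, 1984 and 780.4 for the B cell list, 108, 255 and 29.95 and 579, 2469 and 54.9 for the erythroid list. For the CD8 and regulatory T cell lists every naive YFP+ sum was below every naive YFP- sum.

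In the interaction, in which Socs2 was called, limma called the same 6 plasmacytoid genes and 4 of 5 conventional dendritic cell genes lower, and Trgc1, Trgc2 and Trgc4 of the gamma delta T cell list higher. The mean gamma delta sums in naive YFP- and YFP+ cells, 610 and 531 normalized counts, were mostly Trdc (586 and 507). The Trgc genes and Sox13 together made up the small rest, so the Trgc interactions rest on low naive values. Without TEM YFP- replicate 3 the conventional count was 2 and the gamma delta count 1, and edgeR called 5 of all 7 plasmacytoid and 3 conventional genes. Klk1 passed the filter through TEM libraries only, at 0 to 3.94 normalized counts in naive libraries. Siglech was at 0 to 1.15 there, apart from naive YFP+ replicate 2 (16.7). Of the macrophage, monocyte and neutrophil list Itgam (log2 -3.84, adjusted p 0.00248) and Adgre1 (-4.58, adjusted p 0.0191) were lower, the latter not without TEM YFP- replicate 3 (0.0635), or naive YFP- replicate 1 (0.0507) or 3 (0.0526). Of the NK and NKT cell list Zbtb16 (3.98, adjusted p 0.035) was higher, and Tyrobp (-4.49, adjusted p 0.0157) and Fcer1g (-3.84, adjusted p 0.0444) were lower. Zbtb16 passed the filter through TEM libraries only, at 0 to 4.92 normalized counts in naive libraries. The Tyrobp call was lost without TEM YFP- replicate 3 (0.0541). That of Zbtb16 held in 11 of 23 alternatives (range 0.00362 to 0.24) and was lost in edgeR (0.24, and 0.0815 with the replicate number as a block), with a prior count of 0.5 (0.0653), and without TEM YFP+ replicate 1 (0.1) or 3 (0.0971), TEM YFP- replicate 1 (0.0595), 2 (0.0858) or 3 (0.0857), naive YFP+ replicate 1 (0.0608) or 3 (0.0666), or naive YFP- replicate 1 (0.0836) or 3 (0.0925). That of Fcer1g held in 13 of 23 (range 0.00164 to 0.131) and was lost with a prior count of 0.5 (0.0514) and without TEM YFP+ replicate 1 (0.0678), 2 (0.0947) or 3 (0.0801), TEM YFP- replicate 1 (0.104), 2 (0.0667) or 3 (0.131), or naive YFP- replicate 1 (0.111), 2 (0.0756) or 3 (0.078).

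**Figure D5:**
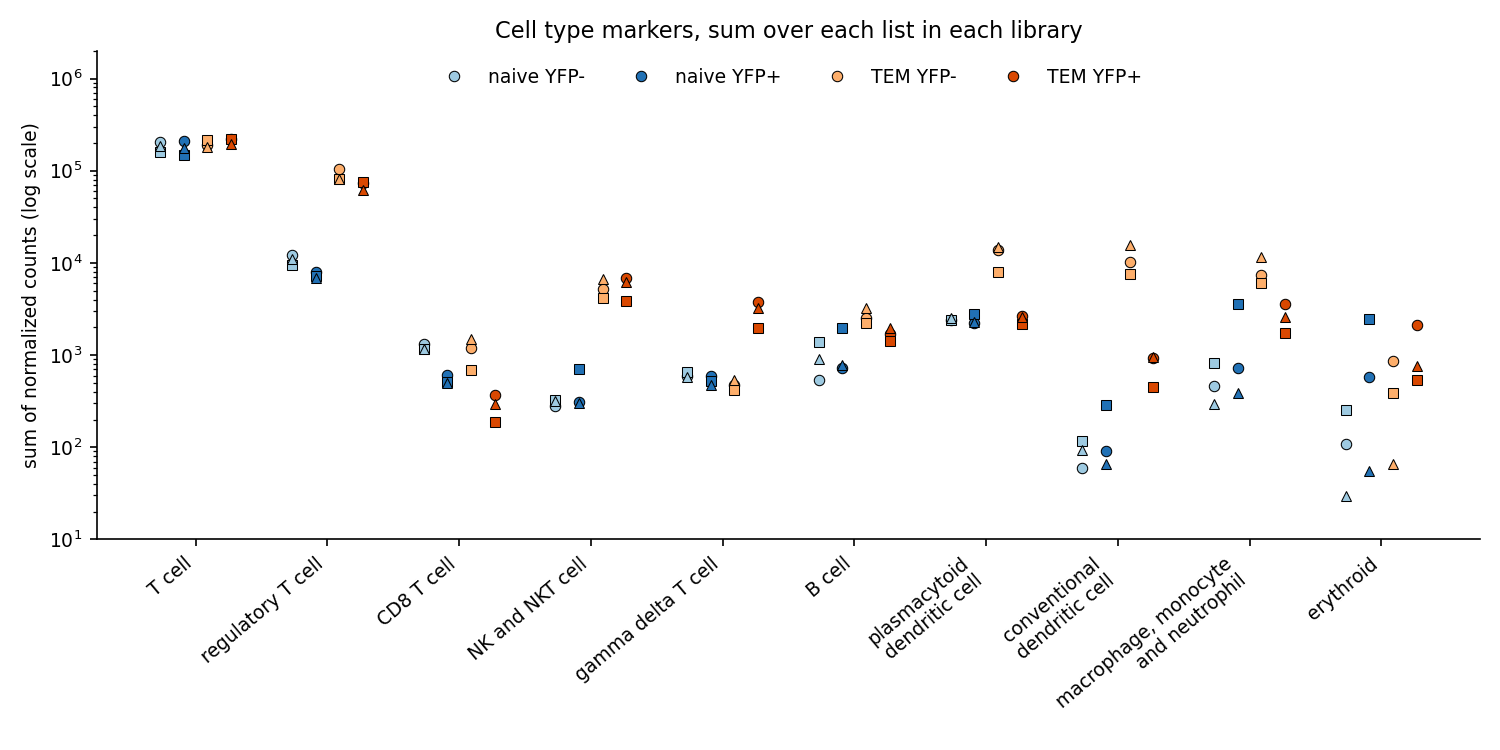
Sum of normalized counts over each of 10 cell type marker lists in each of the 12 libraries on a log axis, with color for the group and circles, squares and triangles for replicates 1, 2 and 3. The 3 dendritic cell and macrophage sums of TEM YFP- libraries lie above those of TEM YFP+, and the gamma delta T cell sums lie below.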

How the data were processed

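Total RNA from sorted splenic CD4+ T cells was sequenced by the authors with a stranded total RNA kit on a HiSeq2500. By the submitters' notes, reads were mapped to mm10 with DRAGEN, counted with Rsubread and normalized with DESeq2. The table deposited by the authors holds the signal of each gene as a normalized count, reads divided by the size factor of the library, for 17523 genes in 12 libraries, and 0 columns were left unused. The strand setting and annotation of the counting are not given in the sources used here. Multiplied by the size factors implied by the table, 100% of values were whole reads within 0.0001, which gave the reads used for TMM, edgeR and DESeq2. Libraries had 40974124 to 57822269 reads on genes (median 44929387.5), and replicates of a group had a Pearson r of 0.967 to 0.984 in log2 values.

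A gene was tested if 3 or more libraries reached 5 normalized counts (15587 genes). Log2 values with a prior count of 1 were fitted with 4 group means in limma 3.58.1 (R 4.3.3; 8 residual degrees of freedom), and a gene was called at an adjusted p of 0.05 or less (Benjamini-Hochberg over all genes tested). The 5 comparisons were YFP+ against YFP- in TEM and in naive cells, TEM against naive in YFP- and in YFP+ cells, and the interaction. Alternatives were prior counts of 0.5 and 5, no filter, a filter on a mean under 10, TMM factors, quantile normalization, edgeR 4.0.16, DESeq2 1.42.0, the replicate number as a block, the 6 libraries compared, each library left out in turn, and minimum log2 fold changes of 1 and 2. A further 2, edgeR with that block and leaving out the 4 replicate 2 libraries, were chosen after the data were seen. Where a library is left out, its group has 2 libraries and shares the pooled spread.

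The block was tried because libraries of the same replicate number were more alike than others. With group means removed, r was above 0.1 for 15 of 18 same-number pairs (-0.0199 to 0.491), while different-number pairs averaged -0.192 to -0.0399. The block gave an adjusted p of 0.0405 for Stat4 between YFP+ and YFP- TEM cells.

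The 9 genes and the lists of pathway and marker genes were chosen with earlier results of these data known. Besides the 9 genes, the text names from each list up to 2 called genes with the largest positive and 2 with the largest negative log2 fold change in a comparison (mean 50 normalized counts or more), the most abundant gene of each marker list, and the 3 genes most like each of the 9 called between YFP+ and YFP- TEM cells. Results that rest on some genes of the lists are not reported. Other genes named beside small counts were chosen after their values were seen. Positions and promoter windows are RefSeq on GRCm38.p6. Exon lengths are GENCODE M21, taken over all transcripts of a gene together. Figures were drawn with matplotlib 3.10.9 in Python 3.11.15.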

Additional observations from a re-analysis of the deposited data

Results flagged for a closer look

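The YFP effect on Socs2 differed between the cell types. Socs2 was higher in YFP+ than in YFP- TEM cells (log2 fold change 1.06, 3 of 3 libraries above all YFP- libraries) and lower in YFP+ than in YFP- naive cells (-0.63, 3 of 3 libraries below all YFP- libraries). The difference between the effects, tested as an interaction, was 1.69 on the log2 scale (SE 0.31, adjusted p 0.0104, range 1.43e-06 to 0.0379 over 23 alternatives). The naive values rest on 28 to 79 reads per library. The summed CD8 and regulatory T cell markers were also lower in every naive YFP+ than in every naive YFP- library, and in the same interaction limma called 6 of 7 plasmacytoid dendritic cell genes lower (besides Cox6a2, which passed the filter only through the TEM YFP- libraries), 4 of 5 conventional dendritic cell genes lower and 3 of 4 gamma delta T cell genes higher. Without TEM YFP- replicate 3 the last counts were 2 and 1, and edgeR called 5 of all 7 plasmacytoid and 3 of 5 conventional genes. Of the plasmacytoid genes Klk1 passed the filter through TEM libraries only, at 0 to 3.94 normalized counts in naive libraries. Siglech was at 0 to 1.15 there, apart from naive YFP+ replicate 2 (16.7). The mean gamma delta sums in naive YFP- and YFP+ cells (610 and 531) were mostly Trdc (586 and 507), so the Trgc interactions rest on low naive values. The part of all these cell types in the Socs2 values was not tested. The naive difference alone had an adjusted p of 1, with an unadjusted p of 0.0130.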

How the results depend on the processing

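Of 1071 log2 values of the 9 genes under 24 alternatives, 23 for the interaction, 989 kept their direction and their side of the threshold, 26 no longer passed, 16 passed newly and 40 turned direction. None of the 40 had passed the threshold in the fit reported above, where the largest of them was 0.168 in size. These are differences as fitted. Measured from the median of all genes, the called falls of Stat3 and Stat6 from naive to TEM in YFP- cells also turned under quantile normalization (0.14 and 0.02), while as fitted they stayed negative (-0.06 and -0.18). Of 258 counts of genes called, for which 2 minimum fold changes were also tried, 219 were within 1.5 times the reported count and 39 were not. The calls of Stat4, Stat5b, Socs2, Socs3 and Cish between TEM and naive cells held in 24 of 24 alternatives to the fit. The cause of the changes below was not tested, apart from the smaller number of libraries where some were left out.

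Quantile normalization turned the log2 difference of Stat3 to -0.0171 in TEM cells by YFP, of Stat6 to -0.00522 in naive cells by YFP, and the interactions of Stat3 to -0.0250 and Stat5b to -0.0360. Leaving out the 4 replicate 2 libraries turned Stat4 in naive cells by YFP to 0.00412 and the interactions of Stat3 to -0.0122 and Stat5b to -0.00209. It left 1 of the 9 genes called in TEM cells by YFP and 0 genes in all in naive cells by YFP.

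With the replicate number as a block limma called 1869 genes in TEM cells by YFP (1087 without), 6 in naive cells (1 without) and 890 for the interaction (554 without), where 2 of the 9 genes passed. It also called Stat3 (adjusted p 0.00715, range 0.00383 to 0.456) and Stat6 (0.00566, range 0.00316 to 0.266) lower in TEM than in naive YFP+ cells, as TMM factors and edgeR did. Besides these, Stat4 in TEM cells by YFP and Socs1 for the interaction, the block changed no call on the 9 genes. edgeR with the block called 2098 and 6 genes by YFP in TEM and naive cells, and 2 of the 9 for the interaction. DESeq2 called 14 genes in naive cells and 845 for the interaction, TMM factors and edgeR 2 each in naive cells, and the fit of only the 6 naive libraries 0.

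A minimum log2 fold change of 2 left 0 of the 9 genes in TEM cells by YFP, 2 from naive to TEM in YFP- and 2 in YFP+ cells, and 0 for the interaction. Over all genes it left 543, 2750 and 2020 in the first 3 of these and 0 in naive cells by YFP. A minimum of 1 left 1, 3 and 3 of the 9 genes in TEM cells by YFP and from naive to TEM in YFP- and YFP+ cells, and 4120 and 3319 of all genes in the last 2.

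Leaving out 1 library gave 0 to 2 of the 9 genes and 638 to 1253 of all genes in TEM cells by YFP, 0 to 1 of all genes in naive cells by YFP, and 279 to 531 for the interaction. The lowest interaction counts were 279 without TEM YFP- replicate 3 and 346 without TEM YFP- replicate 1. The ranges of log2 values that turned direction were as follows. In TEM cells by YFP they were -0.00656 to 0.0926 for Stat3, -0.0849 to 0.0224 for Stat5b and -0.536 to 0.0898 for Socs3. In naive cells by YFP they were -0.0297 to 0.0956 for Stat3, -0.116 to 0.0707 for Stat4, -0.0890 to 0.0807 for Stat6, -0.0918 to 0.133 for Socs1 and -0.291 to 0.204 for Socs3. From naive to TEM in YFP- cells they were -0.107 to 0.0160 for Stat5a and -0.180 to 0.0336 for Socs1. For the interaction they were -0.0510 to 0.0742 for Stat3, -0.0301 to 0.0939 for Stat5b and -0.487 to 0.138 for Socs3. Depth limits Socs2 in naive cells most, with 28 to 79 reads per library.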
